A study of Mus musculus with 6 samples.

Results

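The milk protein genes measured here were Wap, Csn1s1, Csn1s2a, Csn1s2b, Csn2, Csn3, Lalba, Glycam1, Cel and Muc15. These 10 genes were chosen by name as genes for proteins secreted into milk or carried on milk fat, and every probe set assigned to exactly 1 of these symbols was used, which gave 16 probe sets out of 34958 with 1 symbol and 10 genes out of 18194. RNA came from YFP+ luminal mammary epithelial cells (MECs) of adult virgin female mice on a mixed B6/129/FVB background. The mice compared were 3 MMTV-Cre;Runx1L/L;R26Y females, called Runx1-null, and their controls were 3 MMTV-Cre;Runx1+/+;R26Y females, called Runx1-WT, with 1 Affymetrix Mouse Genome 430 2.0 array per mouse. Runx1L is a floxed allele of Runx1, which encodes a DNA-binding transcription factor, and both groups carried MMTV-Cre, in which the mouse mammary tumor virus promoter drives Cre in luminal and some basal MECs, and R26Y, a reporter that makes YFP after Cre has acted. The cells were sorted from thoracic and inguinal glands as Lin−CD24+CD29lo YFP+ cells, so YFP marks Cre activity and not the loss of Runx1 itself, and the study's text allows that many YFP+ mature luminal cells had escaped deletion. The study describes littermates, but which mice shared a litter, their exact ages and their stage of the estrous cycle were not given.

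Milk proteins are made in quantity by alveolar luminal cells of the pregnant and lactating gland, and low transcript levels are also found in the virgin gland. Prolactin, acting through its receptor, JAK2 and the transcription factor STAT5, is the main inducer of these genes, together with glucocorticoids, insulin and the ETS factor ELF5, while progesterone holds back full secretion until birth. Caseins form the micelles that carry calcium phosphate, and whey proteins such as WAP and alpha-lactalbumin stay soluble. The question set for these genes was whether virgin luminal MECs that had lost Runx1 differed from Runx1-WT MECs in their milk transcripts, and how much mice of 1 genotype differed from each other.

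The casein genes lie together on chromosome 5, in the order Csn1s1, Csn2, Csn1s2a, Csn1s2b and, beyond 3 other genes, Csn3 (RefSeq, GRCm38.p6). Wap lies on chromosome 11, Lalba and Glycam1 on chromosome 15, and Cel and Muc15 on chromosome 2. The 250 bases before the transcription start are shown for the 3 genes whose transcripts spread most widely between mice of the same genotype, Csn1s1, Csn2 and Glycam1. They are RefSeq sequences of GRCm38.p6, read 5′ to 3′ on the strand of the gene, from chr5:87665958-87666207 (plus strand), chr5:87699426-87699675 (minus strand) and chr15:103565082-103565331 (minus strand). Capitals mark matches to the STAT5 motif TTCNNNGAA, the RUNX motif TGTGGT, which reads ACCACA on the opposite strand, and the ETS motif GGAAGT. Each motif was searched for on both strands. The shorter ETS core GGAA was not searched for.
Csn1s1: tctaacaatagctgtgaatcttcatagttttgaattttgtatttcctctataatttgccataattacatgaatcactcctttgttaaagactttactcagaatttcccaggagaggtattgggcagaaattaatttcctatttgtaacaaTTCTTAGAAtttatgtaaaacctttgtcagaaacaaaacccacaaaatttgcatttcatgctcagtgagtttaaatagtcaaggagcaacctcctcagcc
Csn2: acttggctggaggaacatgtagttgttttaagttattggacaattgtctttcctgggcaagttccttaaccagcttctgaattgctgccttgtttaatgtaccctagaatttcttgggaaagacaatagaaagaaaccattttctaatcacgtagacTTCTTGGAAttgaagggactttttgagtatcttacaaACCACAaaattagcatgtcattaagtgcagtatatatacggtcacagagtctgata
Glycam1: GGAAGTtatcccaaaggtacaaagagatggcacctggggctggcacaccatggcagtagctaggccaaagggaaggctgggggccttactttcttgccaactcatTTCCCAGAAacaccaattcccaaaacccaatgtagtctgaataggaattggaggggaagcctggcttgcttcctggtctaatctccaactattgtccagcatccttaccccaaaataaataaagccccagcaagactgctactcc
All 3 sequences held 1 STAT5 match, from 100 to 92 bases before the start in Csn1s1, from 93 to 85 in Csn2 and from 145 to 137 in Glycam1. Csn2 also held a RUNX match from 56 to 51 bases before the start, and Glycam1 an ETS match at its far end. No match overlapped another. Of the 7 members with a promoter sequence at hand, the STAT5 motif was found in these 3, the RUNX motif in Csn2 and the ETS motif in Glycam1 and Wap. Among all 32851 promoter windows of this length, 7.02% held the STAT5 motif, 14.0% the RUNX motif and 19.7% the ETS motif. These matches describe letters in the sequence, and binding was not measured.

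The deposited values were linear intensities normalized with dChip. Values below 19.335, the 20th percentile of all values, were set to this floor before taking log2, and they have no order among themselves. A floored value made up 19.3 to 22.3% of each Runx1-null array and 18.8 to 20.6% of each Runx1-WT array. Each gene was represented by its probe set with the highest mean log2 intensity, and 12167 genes with a mean log2 intensity of at least 6.08 were tested with limma, of which 8 were milk protein genes. Wap and Lalba lay under this filter. All differences are on the log2 scale, Runx1-null minus Runx1-WT, and intensities of different probe sets were not set against each other. Runx1 itself, on the brightest of its 6 probe sets, had 3473, 4820 and 2277 in Runx1-null mice 1, 2 and 3, against 4082, 3855 and 2015 in Runx1-WT mice. This probe set thus did not check the deletion, and the probe positions within the gene were not compared with the floxed exon. By qRT-PCR, the study found Runx1 expression lost in sorted YFP+ MECs of Runx1L/L females. It was significantly reduced in their YFP+ luminal progenitors and only slightly reduced in their YFP+ mature luminal cells. Luminal markers were high in every mouse, with summed intensities of 8 genes from 72275 to 76156 in Runx1-null and from 69632 to 72739 in Runx1-WT MECs. Of 8 luminal progenitor genes, 6 were above and 2 below 0 (median 0.17). Of 6 tested mature luminal genes, 1 was above and 5 below 0 (median -0.18). By flow cytometry, the study found a smaller share of mature luminal cells and a larger share of progenitors among YFP+ luminal cells of Runx1L/L females. The part of this shift in the milk protein values was not tested. In RNA of a whole sorted population, fewer cells that make a transcript and less of it per cell cannot be told apart.

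No milk protein gene differed between the genotypes beyond the spread between mice. Limma called 0 of the 8 at an adjusted p under 0.05, where it called 0.0% of all 12167 genes, and 0 at an unadjusted p under 0.05, where all genes gave 240 or 1.97%. The highest and lowest values of both groups overlapped for all 8, while 5.61% of all genes did not overlap. The difference was above 0 for 7 of 8 members, against 44.6% of all genes, with a median of 0.46 for the members and -0.02 for all genes. The sign of this median rested on 1 mouse, as leaving out Runx1-WT mouse 2 gave -0.15. Leaving out Runx1-WT mouse 3 kept the sign and gave 1.24.

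Csn2 encodes beta-casein, a major calcium-sensitive casein. It had intensities of 365, 231 and 57.3 in Runx1-null mice 1, 2 and 3, against 20.6, a value below the floor and 3119 in Runx1-WT mice 1, 2 and 3. Runx1-WT mouse 3 alone lay above all Runx1-null mice, and the other Runx1-WT mice lay below all of them. The difference was 0.65 ± 1.95 (limma standard error, n = 3 mice each, adjusted p = 0.9997), and it turned negative when Runx1-WT mouse 1 (-0.54) or Runx1-WT mouse 2 (-0.58) was left out. The other Csn2 probe set gave the mice the same order, with 161, 113 and 30.5 in Runx1-null, against 19.8, a value below the floor and 1839 in Runx1-WT mice, and a difference of -0.12.

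Csn1s1 encodes alpha-S1-casein, which helps the other caseins leave the endoplasmic reticulum. It had 999, 212 and 138 in Runx1-null mice, against 98.3, a value below the floor and 3826 in Runx1-WT mice. The order of the mice was that of Csn2, and the highest mouse stood at least 198-fold over the lowest, both of them Runx1-WT. The difference was 0.67 ± 1.84 (standard error, adjusted p = 0.9997), and it turned negative when Runx1-null mouse 1 (-0.18) or Runx1-WT mouse 2 (-0.99) was left out.

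Glycam1 encodes a mucin-like glycoprotein of milk that is also made by the high endothelial venules of lymph nodes. It was far above the floor in only 2 mice, at 1471 in Runx1-null mouse 1 and 2315 in Runx1-WT mouse 3, and below the floor in the other 4. Each genotype thus held 1 mouse with a strong signal and a pair with none above the floor. The difference was -0.22 ± 2.37 (standard error, adjusted p = 0.9997), and it was above 0 without any 1 of Runx1-null mouse 2 (0.82), Runx1-null mouse 3 (0.82) or Runx1-WT mouse 3 (2.08).

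**Figure D1:**
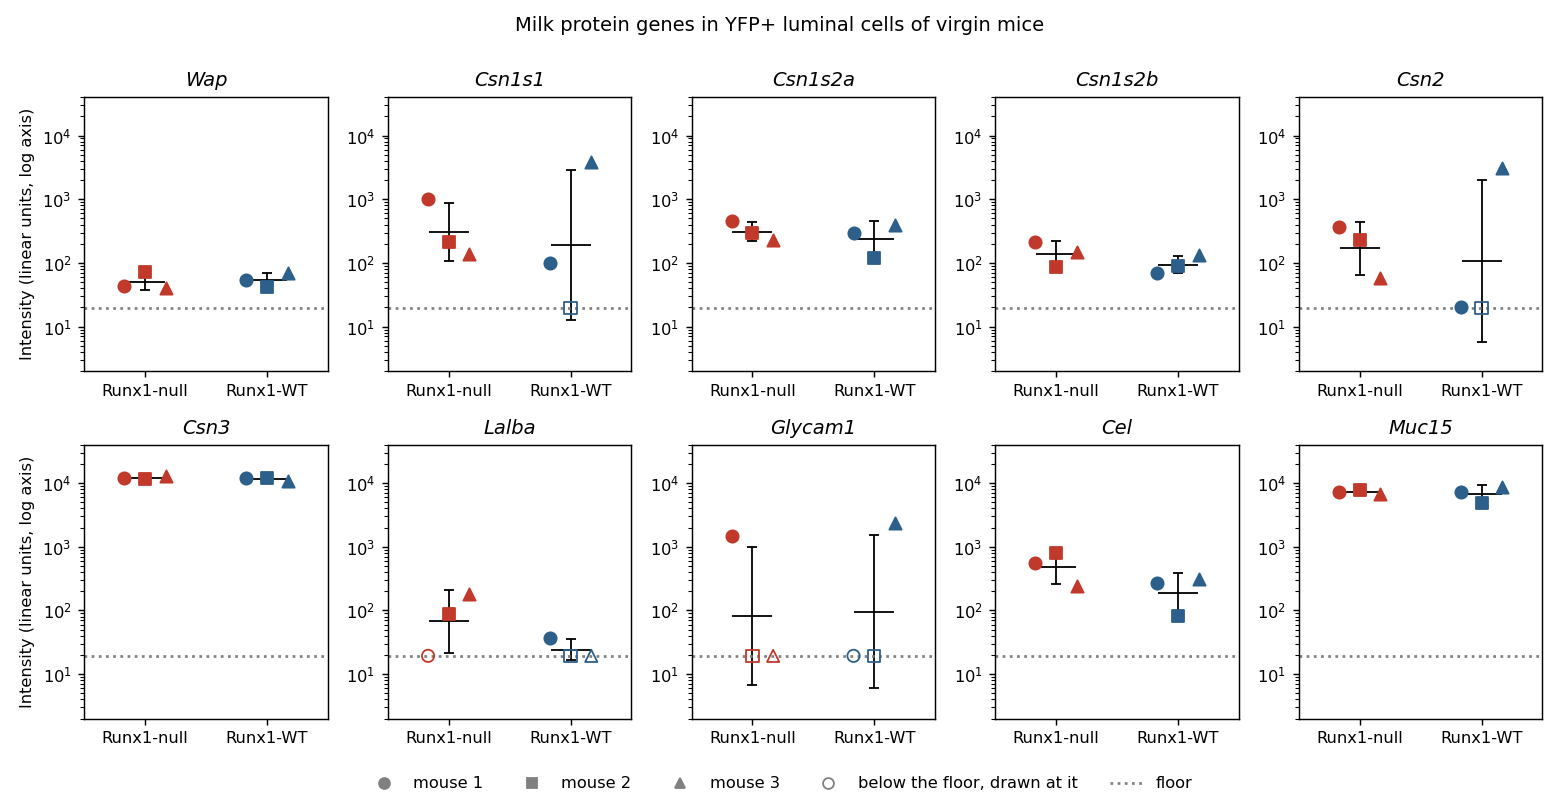
Intensity of each milk protein gene (linear units on a log axis) in 3 Runx1-null and 3 Runx1-WT mice, with 1 symbol per mouse, open symbols for values below the floor (dotted line) and bars for the mean ± SD of the floored log2 values. Csn1s1, Csn2 and Glycam1 spread widely within a genotype, at up to 3826 in Runx1-WT mouse 3, while the 6 values of Csn3 lie close together, from 10919 to 12763.

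The other calcium-sensitive caseins varied less. Csn1s2a, which encodes an alpha-S2-like casein, had 455, 293 and 225 in Runx1-null mice, against 298, 119 and 396 in Runx1-WT mice. Its highest mice were again Runx1-null mouse 1 and Runx1-WT mouse 3 and its lowest Runx1-WT mouse 2, with a difference of 0.36 ± 0.49 (standard error). Leaving out Runx1-WT mouse 2 made it -0.15. A further Csn1s2a probe set had 316, 173 and 134 in Runx1-null mice, against 173, 73.5 and 237 in Runx1-WT mice. The other 3 Csn1s2a probe sets were below the floor in every mouse (2 probe sets) or in 5 of 6 mice (1 probe set). Csn1s2b, which encodes the second alpha-S2-like casein, had 217, 85.9 and 146 in Runx1-null mice, against 70.5, 89.4 and 133 in Runx1-WT mice, a difference of 0.57 ± 0.42 (standard error). The groups overlapped for both genes.

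Csn3 encodes kappa-casein, which coats the micelle and keeps it in suspension. It had 11995, 11355 and 12763 in Runx1-null mice, against 12064, 11938 and 10919 in Runx1-WT mice, and was the least variable member, with a difference of 0.05 ± 0.06 (standard error). This probe set was close to the top of the scale, as at most 0.279% of the probe sets of an array were brighter and the brightest reached 17255 to 18153, and whether its response was still linear there was not tested. The other Csn3 probe set, in the middle of the scale, had 381, 218 and 312 in Runx1-null mice, against 552, 193 and 440 in Runx1-WT mice, and a difference of -0.29. It varied more between mice, and its groups overlapped too.

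Cel encodes the bile salt-stimulated lipase, an enzyme of milk and of the pancreas. It had 553, 794 and 242 in Runx1-null mice, against 265, 83.0 and 308 in Runx1-WT mice, with means of 530 ± 277 and 219 ± 119 (SD, n = 3 each). It had the largest difference of the 8 tested members, at 1.32 ± 0.62 (standard error, unadjusted p = 0.072 and adjusted p = 0.9997 by limma, and p = 0.3 by an exact two-sided permutation test, whose smallest p is 0.1). Runx1-null mouse 3 lay below Runx1-WT mice 1 and 3, so the groups overlapped. Muc15 encodes a membrane mucin of the milk fat globule. It had 7116, 7881 and 6738 in Runx1-null mice, against 7313, 4927 and 8767 in Runx1-WT mice, and a difference of 0.09 ± 0.20 (standard error), which became -0.15 when Runx1-WT mouse 2 was left out.

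The major whey protein genes were weak. Wap, which encodes whey acidic protein, had 44.2, 71.1 and 41.0 in Runx1-null mice, against 54.1, 41.6 and 69.4 in Runx1-WT mice, all above the floor and overlapping. Lalba encodes alpha-lactalbumin, the partner of the galactosyltransferase B4GALT1 in lactose synthesis. It was below the floor in Runx1-null mouse 1 and had 88.4 and 179 in Runx1-null mice 2 and 3, against 37.2 in Runx1-WT mouse 1 and values below the floor in Runx1-WT mice 2 and 3. The mice with the most Csn2, Csn1s1 and Glycam1 were thus among those with Lalba below the floor. With no filter on intensity, the Lalba difference of 1.49 had an unadjusted p of 0.165 by limma (exact two-sided permutation test, p = 0.4).

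The spread between mice of 1 genotype was the main feature of these genes. The pooled within-genotype SD had a median of 0.85 over the 8 tested members and of 0.27 over all tested genes. This comparison and the ranks below were not matched on intensity. The members with the highest SD were Glycam1 at 3.80, Csn2 at 3.13 and Csn1s1 at 2.96, which ranked 3, 8 and 10 among all 12167 genes. They were followed by Cel at 0.96 and Csn1s2a at 0.74, and these 5 members lay above the 90th percentile of all genes, 0.72. Csn1s2b had an SD of 0.58 and Muc15 of 0.31, and Csn3, at 0.08, was below the median gene. The SDs of Glycam1, Csn2 and Csn1s1 included floored values, so that their spread is a lower bound. Glycam1, below the floor in 4 mice, passed the intensity filter only through Runx1-null mouse 1 and Runx1-WT mouse 3. A high SD was thus a condition of its being tested, and its rank carries no further weight.

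**Figure D2:**
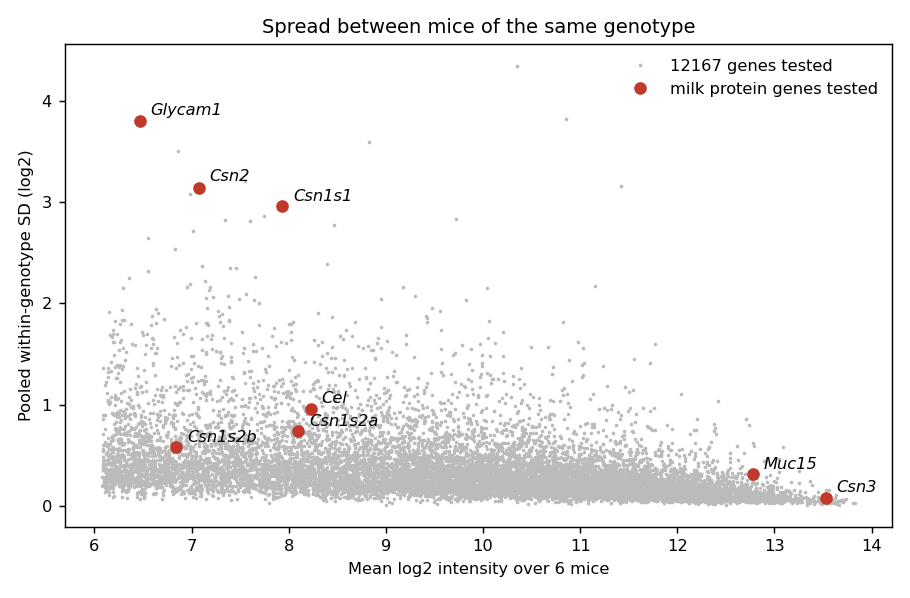
Pooled within-genotype SD of log2 intensity (vertical axis) against mean log2 intensity over 6 mice (horizontal axis) for 12167 tested genes (grey) and the 8 tested milk protein genes (red, named). Glycam1, Csn2 and Csn1s1 lie near the top of the plot at 3.80, 3.13 and 2.96, and Csn3 lies at its foot at 0.08.

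The spread followed particular mice. Runx1-null mouse 1 and Runx1-WT mouse 3 had the 2 highest values for 4 of 8 members (Csn1s1, Csn1s2a, Csn2 and Glycam1) and the 2 lowest for 0, where among all tested genes they were the highest for 14.6% and the lowest for 14.3%. Glycam1 passed the filter only through these 2 mice, so its place among the 4 was set by the filter. Runx1-WT mouse 2 had the lowest value for 5 members. Averaged over the 8 members after centring each gene, log2 intensity was 1.26, -0.05 and -0.55 in Runx1-null mice, against -0.86, -1.57 and 1.78 in Runx1-WT mice. The genes were not scaled, so Csn1s1, Csn2 and Glycam1 weigh most in this average, and Csn3 was lowest in Runx1-WT mouse 3. Scores on the leading component of all other tested genes, which held 51.3% of their variance, were 43.5, 3.53 and -38.3 in Runx1-null mice, against -10.9, -37.6 and 39.8 in Runx1-WT mice. The sign of such a component is arbitrary, and it was set to run with the average of the members. The same mouse of each genotype lay at 1 end of both measures, so the difference between these mice and the others was not limited to milk genes. No correlation between these measures is given, since these 2 mice stood apart from the other 4.

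Genes whose pattern over the 6 arrays was most like the mean of the members were Tpgs2 (Pearson r = 0.996), Ino80e (0.995), Hspe1 (0.995), Vps29 (0.995) and Fanca (0.993), and the least alike were Ell2 (-0.997), Ffar4 (-0.996) and Adipor2 (-0.995). These values describe only 6 arrays, in which the same 2 mice weigh heavily, and the mean rests mostly on Csn1s1, Csn2 and Glycam1. Of all genes, 5.49% had an r of at least 0.9 and 3.69% an r of -0.9 or less. Tpgs2, a subunit of the tubulin polyglutamylase complex, had 214, 145 and 134 in Runx1-null mice, against 116, 94.6 and 270 in Runx1-WT mice. Ffar4, a receptor for long-chain fatty acids, had 948, 1850 and 2366 in Runx1-null mice, against 3177, 3950 and 672 in Runx1-WT mice. Their orders of the mice were the reverse of each other.

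Titles of the samples give animal numbers in a lower range (Runx1-null mice 1 and 2, Runx1-WT mice 1 and 2) and an upper range (mouse 3 of each genotype), and the genotype difference of most members had opposite signs in these ranges. In the lower range 7 of 8 members were above 0, with a median of 1.56 against 0.01 for all genes. In the upper range, with 1 mouse per genotype and no test, 6 of 8 were below 0, with a median of -0.60 against -0.09 for all genes. The sign was opposite in the 2 ranges for 7 of 8 members and for 68.4% of all genes, and it was above 0 in the lower and below 0 in the upper range for 6 of 8 members and 39.6% of all genes.

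In the lower range both Runx1-null mice lay above both Runx1-WT mice for Csn1s1, Csn2 and Cel, and these were the 3 of 8 members without overlap there, where 50.3% of all genes did not overlap in one direction or the other. The lower-range difference was 3.86 for Csn2, 3.40 for Csn1s1, 3.12 for Glycam1 and 2.16 for Cel, and limma called 0 genes there at an adjusted p under 0.05 and 1868, or 15.4%, at an unadjusted p under 0.05. The upper-range difference was -5.77 for Csn2, -4.79 for Csn1s1, -6.90 for Glycam1 and -0.35 for Cel. Csn1s2a had 0.95 and -0.82, and Muc15 0.32 and -0.38, in the lower and the upper range. Csn1s2b, at 0.78 and 0.13, was above 0 in both ranges, and Csn3, at -0.04 and 0.23, changed sign the other way.

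The difference between the ranges was tested as an interaction in limma, a test added after the values were seen. It passed an unadjusted p under 0.05 for 4 of 8 members (Csn1s1, Csn2, Csn3 and Glycam1), where 22.1% of all genes did, and an adjusted p under 0.05 for Csn2, where 0.0164% of all genes (2 genes) did. For Csn2 it was -9.63 ± 0.57 (standard error, adjusted p = 0.0496). For Csn1s1 it was -8.19 (adjusted p = 0.135). The ranges hold 2 mice and 1 mouse per genotype, the spread came from the lower range alone, and Csn2 was at or near the floor in both of its Runx1-WT mice, so this value rests on Runx1-WT mouse 3 and Runx1-null mouse 3.

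**Figure D3:**
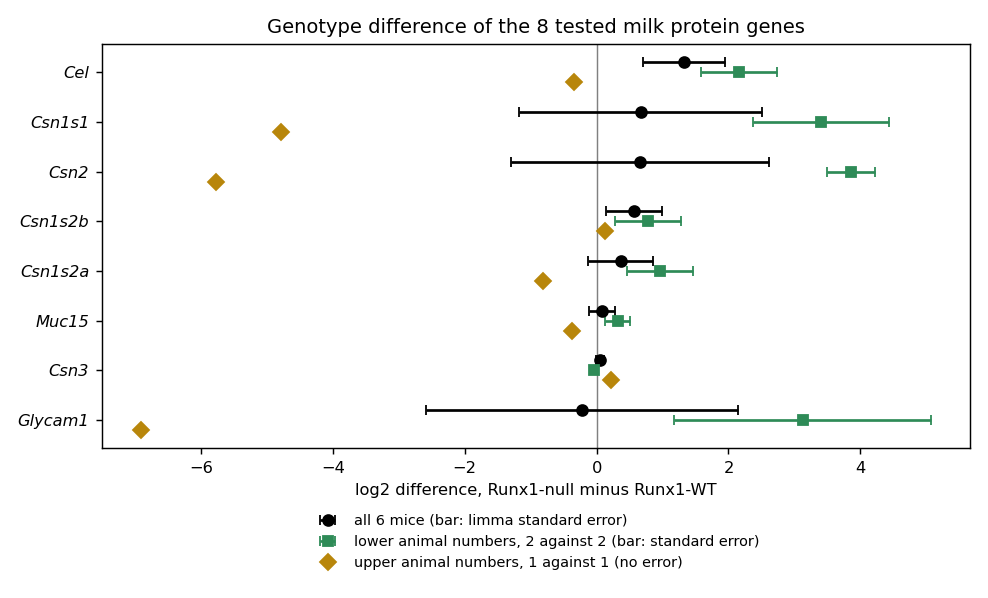
Difference in log2 intensity, Runx1-null minus Runx1-WT (horizontal axis), of the 8 tested milk protein genes over all 6 mice (circles, ± limma standard error), over the lower range of animal numbers (squares, ± standard error) and over the upper range (diamonds, 1 mouse each, no error). Csn2, Csn1s1 and Glycam1 lie above 3 in the lower range and below -4 in the upper range.

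Other genes of milk synthesis had a different order of the mice from Csn1s1, Csn2 and Csn1s2a. Of 11 tested genes for lactose synthesis and milk ion transport, Runx1-null mouse 1 and Runx1-WT mouse 3 had the 2 lowest values for 8 and the 2 highest for 0. The iodide transporter gene Slc5a5 had 351, 4225 and 7621 in Runx1-null mice, against 4838, 5260 and 483 in Runx1-WT mice. It was singled out after its values were seen, as were Btn1a1, Ltf and Folr1 below. B4galt1, the catalytic subunit of lactose synthase, had 5114, 5954 and 6202 in Runx1-null mice, against 6465, 6562 and 5582 in Runx1-WT mice. These 2 mice were thus the highest for Csn1s1, Csn2 and Csn1s2a and the lowest for most of the tested genes of lactose synthesis and transport, while Csn1s2b and Csn3 followed neither order. No gene of the lactose and transport list passed an unadjusted p under 0.05 between the genotypes (median -0.05, 4 above and 7 below 0).

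Of 8 other secreted milk proteins tested, these mice were the 2 lowest for 3 (Ltf, Folr1 and Pigr) and the 2 highest for 0. Ltf, the iron-binding lactoferrin, had 2265, 4604 and 8301 in Runx1-null mice, against 5361, 6597 and 3406 in Runx1-WT mice. Folr1, a folate-binding protein, had 1110, 1802 and 2996 in Runx1-null mice, against 2232, 1908 and 949.6 in Runx1-WT mice. The genotypes overlapped for both. The list had 7 of 8 genes above 0, with a median of 0.10, and Clu, which encodes the chaperone clusterin, was higher in every Runx1-null than in every Runx1-WT mouse by 0.08, close to the top of the scale.

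Of 11 genes of the milk fat globule and milk lipid, 4 were above and 7 below 0, with a median of -0.05. Btn1a1, which encodes butyrophilin, the main membrane protein of the globule, had 725, 2762 and 6096 in Runx1-null mice, against 4635, 4086 and 2183 in Runx1-WT mice. Lpl, the lipase that frees fatty acids from lipoproteins in blood, had 429.6, 612 and 422 in Runx1-null mice, against 865, 655 and 1070 in Runx1-WT mice. Cd36, a fatty acid transporter, had 562, 434 and 639 in Runx1-null mice, against 826, 948 and 731 in Runx1-WT mice. Both were lower in every Runx1-null mouse (unadjusted p = 0.017 and 0.025 by limma), and Plin2, which coats lipid droplets, was higher by 0.30 with overlapping groups (unadjusted p = 0.046). None passed the adjusted threshold. Stromal and endothelial markers had differences of the same sign as Cd36 and Lpl. Of 6 stromal and 5 tested endothelial genes, 0 were above 0, with medians of -0.61 and -0.70. Summed stromal intensities were 4581 to 12127 in Runx1-null, against 11608 to 13641 in Runx1-WT MECs. Endothelial sums, which include 1 gene under the filter, were 651 to 805 in Runx1-null, against 933 to 1217 in Runx1-WT MECs. The part of stromal and endothelial cells in the Lpl and Cd36 values was not tested.

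**Figure D4:**
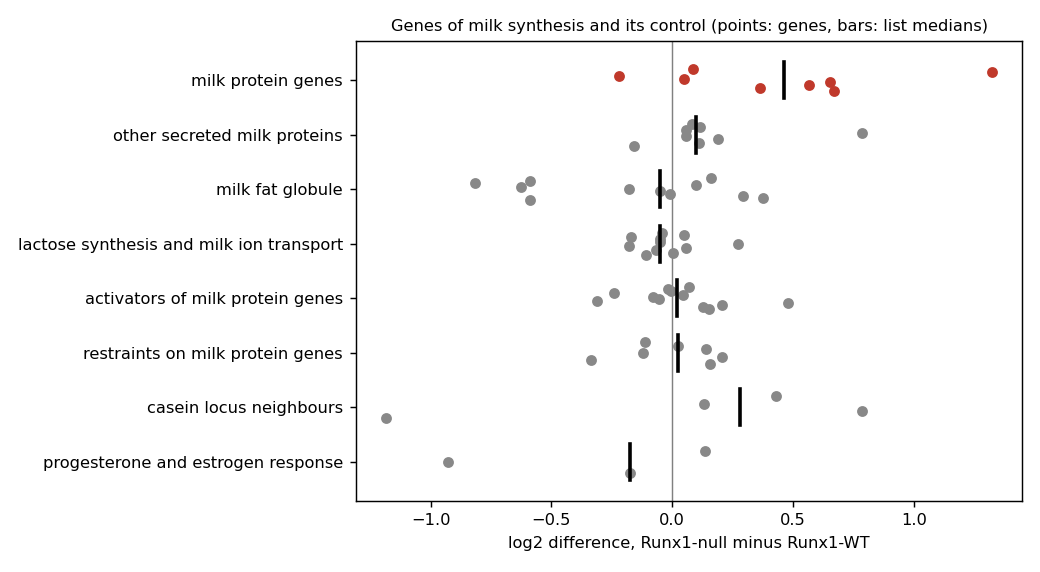
Difference in log2 intensity, Runx1-null minus Runx1-WT (horizontal axis), of every tested gene in the milk protein list (red) and 7 related lists (grey), with the list median as a black bar. The list medians run from -0.17 to 0.46, and points of every list lie on both sides of 0.

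No regulator of the milk genes passed the test. Of 12 tested activators, 6 were above and 6 below 0, with a median of 0.02, and 0 passed an unadjusted p under 0.05. Stat5a had 4720, 5481 and 6553 in Runx1-null mice, against 5099, 5042 and 5061 in Runx1-WT mice, a difference of 0.13. Stat5b had 2193, 2407 and 2189 in Runx1-null mice, against 2069, 1860 and 1963 in Runx1-WT mice, a difference of 0.20 without overlap (unadjusted p = 0.146). Elf5 had 2785, 3126 and 3409 in Runx1-null mice, against 2691, 1119 and 3640 in Runx1-WT mice. Its lowest mouse, Runx1-WT mouse 2, was also the lowest for 5 milk protein genes, and the Elf5 difference of 0.48 ± 0.41 (standard error) was within the spread. The study described Elf5 as upregulated in Runx1-null luminal cells, from the same probe set of its microarray data and by qRT-PCR. The prolactin receptor gene was not analysed here. Of 7 tested restraints on this pathway, 4 were above and 3 below 0. Cish, a STAT5-induced inhibitor of cytokine signalling, had 1792, 1436 and 846 in Runx1-null mice, against 1231, 617 and 1871 in Runx1-WT mice. Its pair of highest mice, Runx1-null mouse 1 and Runx1-WT mouse 3, and its lowest mouse were those of Csn2. Among the 7 restraints, this pair had the 2 highest values for 1 (Cish) and the 2 lowest for 4. Among the 12 activators, the pair was highest for 0 and lowest for 2.

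A hormone-regulated gene outside the milk list had a like range. Tnfsf11 encodes RANKL, a progesterone-induced signal from hormone-sensing luminal cells to their neighbours. It had 337, 134 and 28.8 in Runx1-null mice, against 4980 in Runx1-WT mouse 3 and values below the floor in Runx1-WT mice 1 and 2. Its difference was -0.17 ± 2.19 (standard error) over all mice, 3.46 in the lower and -7.44 in the upper range. Pgr, the progesterone receptor gene, had 2906, 5641 and 7128 in Runx1-null mice, against 5145, 5978 and 2865 in Runx1-WT mice, with its 2 lowest values in the mice that had the most Csn1s1, Csn2 and Glycam1. Wnt4, a progesterone target, had 552, 717 and 1336 in Runx1-null mice, against 1592, 1526 and 1498 in Runx1-WT mice, a difference of -0.93 without overlap (unadjusted p = 0.024, adjusted p = 0.9997).

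**Figure D5:**
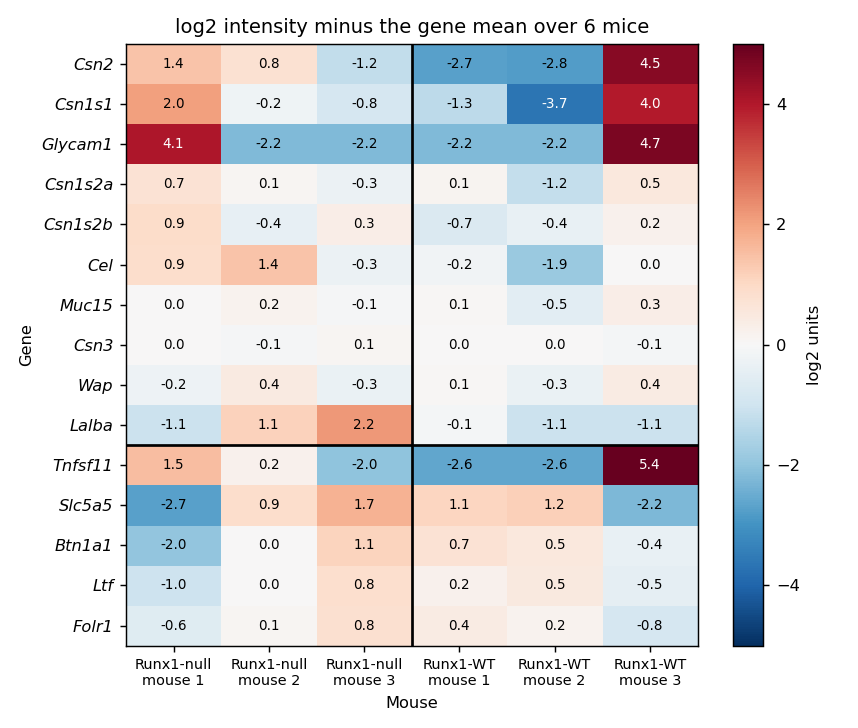
Log2 intensity minus the mean of the gene over 6 mice (colour and number, log2 units) for the 10 milk protein genes (above the line) and 5 other genes, with Runx1-null mice on the left and Runx1-WT mice on the right. Csn2, Csn1s1, Glycam1 and Tnfsf11 are highest in Runx1-WT mouse 3, and Slc5a5, Btn1a1, Ltf and Folr1 are below their means in Runx1-null mouse 1 and Runx1-WT mouse 3.

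Cell division genes were highest in the same pair of mice, while basal, leukocyte, endothelial and stromal genes mostly had other highest mice. All 7 tested cell division genes had their 2 highest values in Runx1-null mouse 1 and Runx1-WT mouse 3, and Mki67, a marker of dividing cells, had 1026, 101 and 63.2 in Runx1-null mice, against 539, 126 and 712 in Runx1-WT mice. Summed intensities of the cell division genes were 7355 to 23969 in Runx1-null and 8815 to 19646 in Runx1-WT MECs. Among 9 basal and myoepithelial markers, 7 passed the filter. All 9 summed to 4792 to 13135 in Runx1-null and 4979 to 10743 in Runx1-WT MECs. Runx1-null mouse 1 and Runx1-WT mouse 3 had the 2 highest values for 1 of the 7 tested basal genes (Krt17), and for 0 of 3 leukocyte, 0 of 5 endothelial and 0 of 6 stromal genes tested. Averaged over the 7 basal genes after centring each, log2 intensity was 0.49, 0.76 and -0.75 in Runx1-null mice, against -0.31, -0.63 and 0.44 in Runx1-WT mice. This basal average was thus above 0 in Runx1-null mice 1 and 2 and Runx1-WT mouse 3, the mice with the most Csn2 and Csn1s1. Oxtr, the oxytocin receptor gene of myoepithelial cells, had 4268, 2395 and 423 in Runx1-null mice, against 517, 386 and 1798 in Runx1-WT mice. Trp63, which encodes the basal cell factor p63, had 1832, 3006 and 965 in Runx1-null mice, against 1179, 959 and 844 in Runx1-WT mice, so the basal markers did not share 1 order of the mice. Leukocyte markers, with those under the filter included, summed to 693 to 1222 in Runx1-null and 801 to 3005 in Runx1-WT MECs. Only 3 of 8 passed the filter. The highest sum was that of Runx1-WT mouse 3, in which the T-cell gene Cd3e had 294, against at most 46.5 in any other mouse. Runx1-null mouse 1, with the second highest Glycam1, had a Cd3e intensity of 35.9. The part of basal cells, leukocytes or dividing cells in the milk protein values was not tested.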

How the data were processed

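RNA of sorted YFP+ luminal MECs was amplified (NuGEN Ovation V2) and measured with 1 Affymetrix 430 2.0 array for each of 3 Runx1-null and 3 Runx1-WT mice. The deposited values are linear intensities for 45101 probe sets, which the authors normalized with dChip (version and model not given in the sources used here). There are no counts behind array values, and the number of arrays limits the precision. Probe sets were named by the platform annotation: 34958 had 1 symbol, 932 several and 9211 none here. Of 18194 genes, 12167 entered the test because the mean log2 intensity of their brightest probe set reached the 40th percentile (limma 3.58.1 in R 4.3.3, with an intensity trend in eBayes and Benjamini-Hochberg adjustment over these genes). Replicates were separate mice, so p-values measure the spread between mice. Litter is not in the fit.

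The milk protein genes and all related lists were chosen with earlier results of these data known, and the ranking of the mice was examined after the values were seen. Named genes are all members, Elf5, Stat5a, Stat5b and Runx1, up to 4 genes of each related list with the smallest unadjusted p, the 5 genes most and 3 least like the members, and further genes said to be chosen from their values (also Cd3e, Pigr and Slc5a5). The alternatives tried were quantile normalization, median scaling, the 60th percentile as filter or none, a pseudocount of 5.04, a floor at the 10th percentile, each mouse left out, animal number range as a block or as subsets, other variance models, all probe sets, an adjusted p threshold of 0.1 and the methods' t-test. The interaction with the range was chosen after the data were seen. Simulated data with known changes were used to test the code. Promoters came from RefSeq (GRCm38.p6).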

Additional observations from a re-analysis of the deposited data

Results flagged for a closer look

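The genotype difference of Csn2 had opposite signs in the 2 ranges of animal numbers. It was 3.86 in the lower range, where Csn2 had 365 and 231 in Runx1-null mice 1 and 2, against 20.6 and a value below the floor in Runx1-WT mice 1 and 2, and -5.77 in the upper range, where it had 57.3 in Runx1-null mouse 3, against 3119 in Runx1-WT mouse 3. The interaction was -9.63 on the log2 scale (limma, adjusted p = 0.0496 over 12167 genes, of which 2 passed). This test was chosen after the values were seen. The upper range holds 1 mouse per genotype, and the standard error of 0.57 comes from the lower range alone, where 1 Runx1-WT value was set to the floor and the other lay just above it, which narrows the spread. The adjusted p is therefore likely to be too small, and the value describes these mice.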

How the results depend on the processing

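In all 20 alternatives, with the methods' t-test after adjustment and a threshold of 0.1 among them, the number of genes called was 0, so no call was gained or lost. The signs of single members were less stable. In the upper range of animal numbers the difference was -4.79 for Csn1s1, -0.82 for Csn1s2a, -5.77 for Csn2, -0.35 for Cel and -0.38 for Muc15, against values above 0 over all mice, and in the lower range it was -0.040 for Csn3 and 3.12 for Glycam1. Leaving out 1 mouse at a time gave -0.99 to 2.82 for Csn1s1, with -0.18 without Runx1-null mouse 1, and -0.15 to 0.72 for Csn1s2a. It gave -0.58 to 3.08 for Csn2, with -0.54 without Runx1-WT mouse 1, and -0.15 to 0.27 for Muc15. For Glycam1 it gave -2.30 to 2.08, with 0.82 without Runx1-null mouse 2 or 3, while Cel (0.73 to 1.81), Csn1s2b (0.25 to 0.92) and Csn3 (0.00 to 0.09) kept their sign. The second probe set of Csn2 gave -0.12 and that of Csn3 -0.29, and the mean of all probe sets gave -0.12 for Csn3. The causes were not tested beyond these values. The members' median difference was -0.15 to 1.24 and their median SD 0.69 to 0.94 when 1 mouse was left out. Values near the floor (Glycam1, Csn2, Csn1s1, Lalba) and close to the top of the scale (Csn3) limit what the arrays can show. No paired analysis was possible because the labels give no replicate numbers shared between the genotypes and do not say which mice were littermates.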
